A study of Drosophila melanogaster with 12 samples.

Results

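The regions described here are stretches of Drosophila melanogaster DNA that lay between neighbouring nucleosomes both in gcm-expressing neural progenitors (GNP) and in glia. A gap was counted where 150 to 354 bp lay between the end of a nucleosome and the start of the next, which puts their starts up to 500 bp apart. Every nucleosome is listed at the same length, with its midpoint 73 bp after its start. A GNP gap was called shared when no glia nucleosome had its midpoint in it and when it had at least 100 bp in common with a glia gap. The members were therefore selected on the measured start positions in both lists, and 10604 of the 61357 GNP gaps met the rule, or 17.3% (95% Wilson interval 17.0 to 17.6%).

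The study followed chromatin as gcm-expressing cells of the embryo became glia, and mapped nucleosomes by MNase-seq, the sequencing of DNA left after digestion with micrococcal nuclease, in 1 library per cell type. GNP nuclei came from embryos 5–7 h after egg laying, in which gcm-Gal4 drove UAS-3xFLAG-blrp-mCherry-RanGap, a tag on the nuclear envelope. That line also carried UAS-mCDGFP and is written over cyo. Glia nuclei came from embryos 12–14 h after egg laying, with repo-Gal4 and the same UAS-3xFLAG-blrp-mCherry-RanGap over a balancer that the labels write as Tm3B and the study's methods as Tm3. Embryos were fixed with formaldehyde and the tagged nuclei were pulled out on anti-FLAG beads, so each population was defined by its Gal4 driver. The gene gcm is also active in precursors of hemocytes, and the labels call both populations glial cells, early and late. Driver, age and library changed together between both maps and cannot be told apart.

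A nucleosome is DNA wrapped around a core of histones, and the DNA between neighbouring cores, the linker, is where micrococcal nuclease cuts first. Longer stretches without a nucleosome are known from active promoters, enhancers and other sites bound by regulatory proteins, where remodellers and bound factors keep histones away. Beside a fixed boundary, nucleosomes often stand at regular steps, and this order fades with distance as positions vary from cell to cell. A list of called nucleosomes also holds gaps where a nucleosome had too few reads to be called.

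The GNP list held 522119 nucleosomes with a median of 201 bp between neighbouring starts, and the glia list 510664 with a median of 210 bp, both on 6 chromosome arms of build dm3. Neither list gives the reads of a nucleosome, so depth is unknown. There was no replicate check and no test, since each map is a single library. All intervals below are 95% intervals for counting error only, and they treat gaps as independent although neighbouring gaps can share a nucleosome. A dm3 genome and annotation were not used here, so base composition, motifs and gene starts in these gaps were not analysed.

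Most GNP gaps were not shared. A glia nucleosome had its midpoint in 41819 GNP gaps (68.2%), which are called filled gaps here. The other 8934 (14.6%) held no glia midpoint and had no partner that met the rule. Of these, 8445 lay between glia nucleosomes too close to each other for a gap. Over all 8934, the starts of the flanking glia nucleosomes had a median distance of 266 bp. Another 233 had a glia gap that shared less than 100 bp with them, and 256 lay between glia nucleosomes more than 500 bp apart. Counted from the glia side by the same rule, 11066 of 65097 glia gaps were shared. At the edge of the rule, 112 members shared 100 to 104 bp with their glia partner and 74 GNP gaps missed the rule with 95 to 99 bp, and 978 members had a GNP gap of 150 to 154 bp.

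The shared gaps were close in length to GNP gaps in general. Their median length was 177 bp in GNP (quartiles 163 and 200 bp, longest 352 bp) and 180 bp for the glia partners (quartiles 164 and 205 bp, longest 354 bp). Filled gaps had a median of 182 bp in GNP, and all GNP gaps one of 178 bp. A length of 200 bp or more was found in 25.6% of shared gaps, in 32.4% of filled gaps, in 9.57% of the GNP gaps that were neither, and in 27.9% of all GNP gaps. The stretch free in both maps, the overlap of a GNP gap with its partner, had a median of 162 bp (quartiles 152 and 178 bp, range 100 to 347 bp). In 1339 members (12.6%) the gap was 200 bp or longer in both maps. The rule itself acts on length, since a longer gap has more room for a midpoint and a short one has little more than the 100 bp to share, so these lengths are a description.

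**Figure D1:**
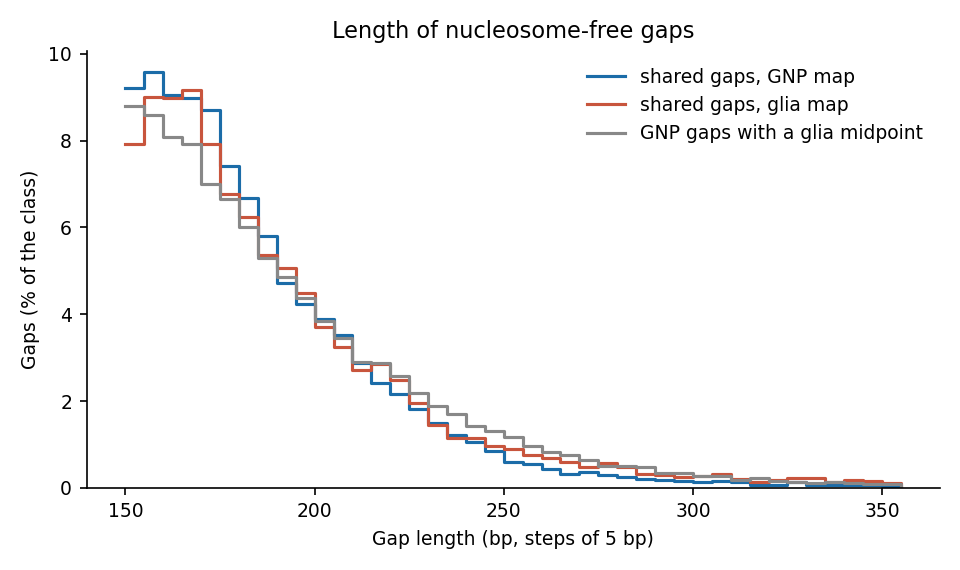
Gap length in bp, in steps of 5 bp, against the percent of gaps in each class, for shared gaps in the GNP map (blue), their partners in the glia map (red) and GNP gaps with a glia midpoint (grey). Most gaps of every class were under 200 bp, and the grey line lies above the blue one at the long end, with 32.4% against 25.6% at 200 bp or more.

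The share of GNP gaps that were shared did not rise or fall steadily with length. It was 15.9% at 150 to 159 bp, 19.7% at 170 to 179 bp, 13.4% at 240 to 259 bp and 11.4% at 300 to 354 bp. The length of a member in GNP and that of its partner in glia moved together only loosely, with Pearson's r of 0.411 and Spearman's rho of 0.311 over the 10604 members. These coefficients describe pairs that already had to overlap by the rule. Glia partners were longer in 5381 members (50.7%), shorter in 4994 (47.1%) and equal in 229. The median difference, glia minus GNP, was 1 bp (quartiles −14 and 19 bp). Lengths differed by at most 10 bp in 3818 members (36.0%) and by more than 50 bp in 1683 (15.9%).

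Each edge of a shared gap had a median move of 11 bp between both maps (quartiles 4 and 30 bp), and the centre also had a median move of 11 bp. Both edges stayed within 10 bp in 3019 members (28.5%), exactly 1 edge did so in 4470 (42.2%), and neither did in 3115 (29.4%). The left edge stayed within 10 bp in 49.8% of members and the right edge in 49.3%, so neither side was the steadier. At least 1 edge was identical to the base pair in 627 members (5.91%), and both were in 15 (0.141%). The direction of the moves is given as a description, since the rule bears on it: a gap close to 150 bp can hardly narrow, and no edge can move in by more than the 73 bp to a midpoint. Both edges shifted the same way in 5991 members (56.5%), toward higher coordinates in 2956 and toward lower ones in 3035. The gap widened on both sides in glia in 1850 members (17.4%) and narrowed on both sides in 2136 (20.1%). In 878 members (8.28%) the glia partner itself held a GNP midpoint outside the GNP gap, so the glia gap was open where GNP had a nucleosome beside the shared stretch.

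**Figure D2:**
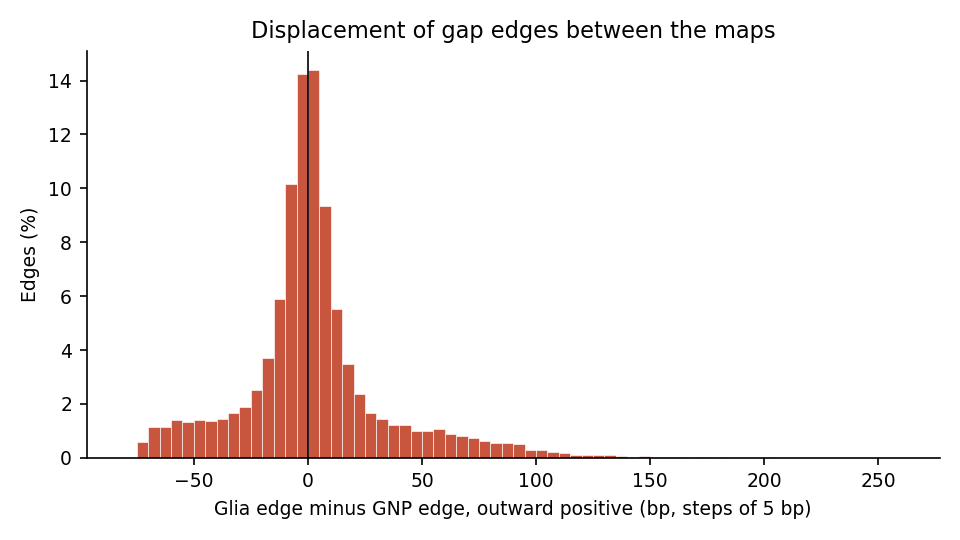
Displacement of both edges of each shared gap from the GNP to the glia map in bp, in steps of 5 bp, outward moves positive, as percent of the edges. Most edges lie close to 0, with a median move of 11 bp, and inward moves end near 73 bp, where the midpoint of the glia nucleosome would enter the GNP gap.

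Called nucleosomes stood at preferred distances on both sides of the shared gaps, as they did around nucleosomes in general. Calls within a list did not overlap, and a smallest distance alone can give a first peak with a trough after it. The ratios below are therefore a description and do not measure order by themselves. Counting GNP dyads, the midpoints of nucleosomes, outward from the dyad of the bordering nucleosome, the first neighbour peaked at 178 bp, the second at 378 bp and the third at 559 bp. The height of the first peak over the trough after it was 3.64 (3.34 to 3.96), that of the second 1.58 and that of the third 1.36. Around filled gaps the same ratios were 3.70, 1.52 and 1.30, and around all GNP nucleosomes 4.48, 1.73 and 1.40. In GNP the first ratio was thus lower beside gaps, shared or filled, than beside nucleosomes in general. In glia the highest points beside the partners lay at 178, 388 and 547 bp. Each is the highest point in a fixed range of distances, so a position is always found. The profile was broad at the second, with 1.21 times the mean density at 388 bp and 1.19 times at 364 bp. The later positions are therefore loose. The ratios in glia were 3.04 (2.79 to 3.31), 1.34 (1.23 to 1.46) and 1.18 (1.08 to 1.28). Filled glia gaps, those that held a GNP midpoint, gave 2.87, 1.25 and 1.09, and all glia nucleosomes 3.12, 1.24 and 1.08. Such a ratio takes the highest and the lowest point of a counted profile, so it lies above 1 even where a profile is nearly flat, and more so for the 21208 sides of shared gaps than for larger sets. Left and right sides were alike, with first ratios of 3.72 and 3.82 in GNP and of 3.18 and 3.04 in glia.

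**Figure D3:**
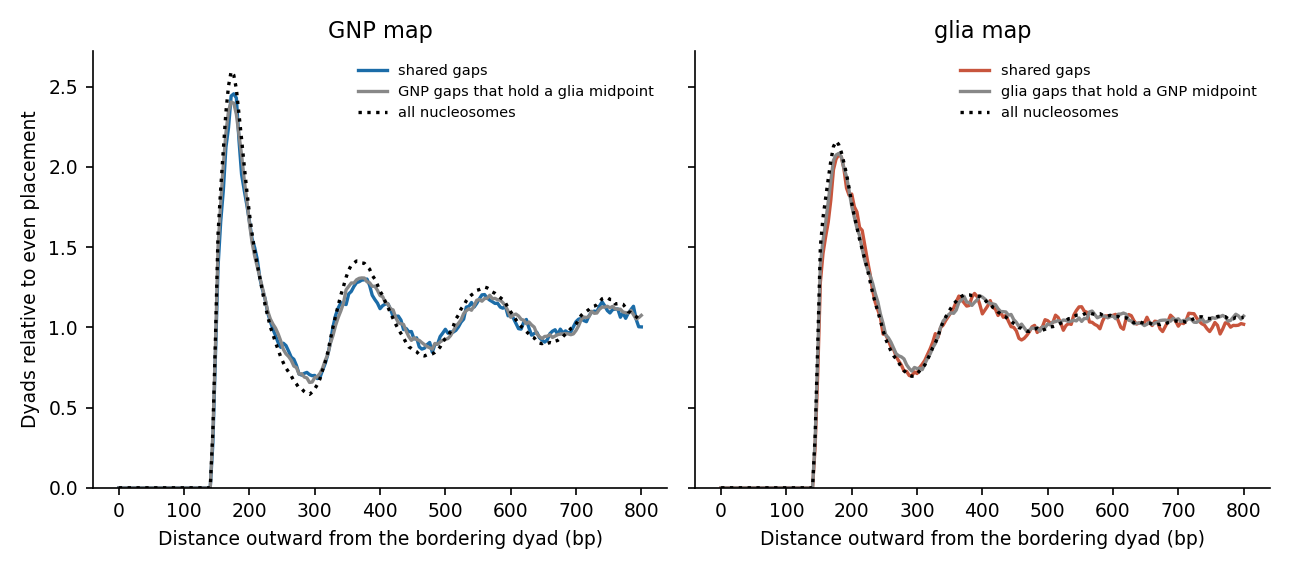
Number of dyads by distance in bp outward from the dyad that borders a gap, relative to the mean density of dyads in that map and smoothed over 11 bp, both sides pooled, for shared gaps (solid colour), gaps with a midpoint of the other map (grey) and all nucleosomes (dotted). Peaks at 178, 378 and 559 bp stand beside shared gaps in the GNP map on the left, and the later ones are flatter in the glia map on the right.

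The first step outward from a shared gap was slightly long. Its median was 207 bp in GNP (205 to 208 bp), against 205 bp beside filled gaps (204 to 205 bp) and 201 bp for all GNP nucleosomes. It was above the median of all nucleosomes on 6 of 6 arms, and above that beside filled gaps on 5, with 204 against 205 bp on 2L. From the second step outward the medians lay between 201 and 202 bp. In glia the first step had a median of 214 bp (213 to 215 bp), against 212 bp beside filled gaps and 210 bp for all glia nucleosomes. Steps of 160 to 200 bp made up 37.7% of the first steps beside shared gaps in GNP and 40.6% of all GNP steps, and 33.0% and 35.0% in glia.

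Further openings beside shared gaps were also counted. The next step was itself a gap in 12.5% of sides in GNP (12.1 to 13.0%), against 12.1% beside filled gaps (11.9 to 12.3%) and 11.8% of all steps. In glia this share was 14.2% (13.7 to 14.7%), against 13.5% and 12.7%. Steps above 500 bp, which hold no called nucleosome over a longer stretch, followed in 0.971% of sides in GNP (0.848 to 1.11%) against 0.466% beside filled gaps and 0.508% of all steps. In glia they followed in 0.962%, against 0.359% beside filled gaps and 0.495% of all steps. In GNP the share beside shared gaps was above that beside filled gaps on 5 of 6 arms, and on 3R it was 0.234% against 0.257%. These long steps were not limited to the border of the gap. At the second to the sixth step from shared gaps they made up 0.806 to 1.02% in GNP and 0.764 to 0.986% in glia. From filled gaps the same steps gave 0.532 to 0.566% in GNP and 0.384 to 0.475% in glia. The run of nucleosomes from a shared gap to the next gap had a median of 6 in GNP (quartiles 3 and 11), and all GNP gaps also had a median of 6. In glia the median was 5 for both.

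The nucleosomes beyond the bordering pair were compared between both maps, since the rule did not use them directly. Over all GNP nucleosomes, 28.7% had a glia dyad within 10 bp. For the bordering nucleosomes of shared gaps this was 49.5%, a value that the rule favours. For the second nucleosome it was 32.4% (31.8 to 33.0%) and for the third 29.9% (29.3 to 30.5%), and for the fourth to the sixth it lay between 28.8% and 29.4%. Beside filled gaps the first nucleosome agreed in 24.5% and the second in 27.5%, both under the share of all nucleosomes. The choice of this class bears on these values too. A glia nucleosome with its midpoint in the gap leaves less room for one at the place of the bordering nucleosome, and neighbours tended to agree together. The second nucleosome beside shared gaps was above the share of its own arm on 5 of 6 arms, and arm 4 was the exception with 27.1% against 28.1%. Seen from the glia list, the second nucleosome agreed in 33.4% and the third in 30.1%, against 29.3% of all glia nucleosomes.

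**Figure D4:**
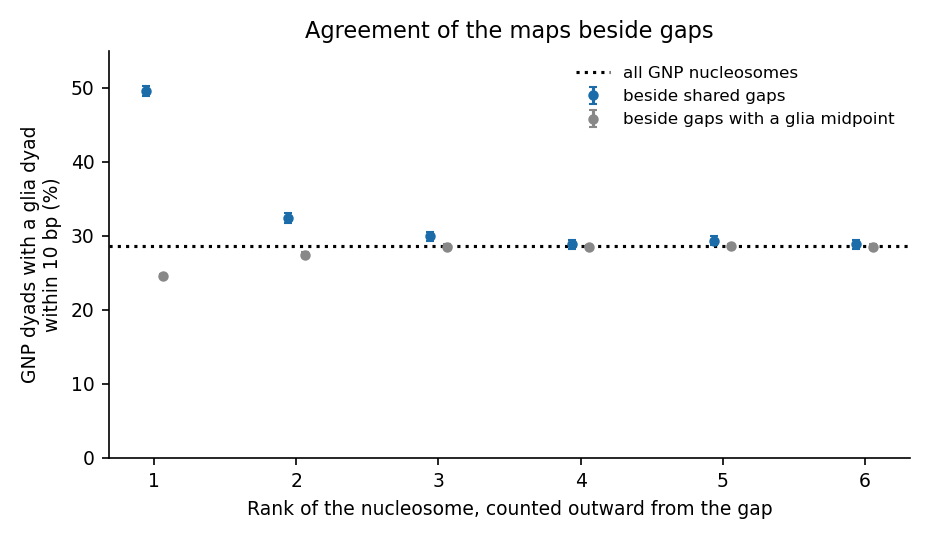
Percent of GNP dyads with a glia dyad within 10 bp, by rank of the nucleosome outward from shared gaps (blue) and from GNP gaps with a glia midpoint (grey), with 95% Wilson intervals, and the level of all GNP nucleosomes (dotted). Beside shared gaps the share falls from 49.5% at the bordering nucleosome to 32.4% at the second and then lies near the 28.7% of all GNP nucleosomes. The choice of the classes bears on the bordering nucleosome in both of them.

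Agreement of the second nucleosome went with that of the first, beside shared gaps and elsewhere. Where the bordering nucleosome of a shared gap agreed, the second agreed in 36.1%, and over all GNP nucleosomes with an agreeing neighbour it was 35.3%. Where the bordering nucleosome did not agree, the second agreed in 28.7%, against 26.0% over all GNP nucleosomes. These sets are unlike, since the rule still kept such a bordering nucleosome from moving in by more than 73 bp. The part of the rule in this difference was not tested.

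Shared gaps were found on all 6 arms, most densely on arm 4. There were 2001 on 2L, 1879 on 2R, 2288 on 3L, 2354 on 3R, 1932 on X and 150 on the small arm 4. Per Mb this was 84.4 on 3R, 86.2 on X, 87.0 on 2L, 88.9 on 2R and 93.3 on 3L, and 113 on arm 4. The density on arm 4 was 1.29 times that of the other arms (1.10 to 1.52). As a share of GNP gaps the range was narrower, from 16.6% on 3R and 16.8% on X to 18.1% on 3L and 19.1% on arm 4 (16.5 to 22.0%). Arm 4, which is rich in repeats and in heterochromatin proteins, had 48.0% of its shared gaps within 5 kb of a stretch without calls. Such a stretch lay between neighbouring starts over 500 bp apart in the GNP map, the glia map or both, so it could be empty in a single map only. Away from such stretches the share on arm 4 was 16.0% (13.1 to 19.6%), and on the other arms it lay between 16.6% and 17.8%.

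The share was higher near the centromere on 4 of 5 arms. In the proximal 1 Mb it was 28.1% on 2R, 26.6% on 3L, 23.6% on 2L and 20.3% on X, against 17.4%, 17.8%, 16.7% and 16.6% on the rest of these arms. On 3R it was 14.8% against 16.7%, and on 3R and X the intervals overlapped. Pooled over these 5 arms, 539 of 2367 proximal GNP gaps were shared (22.8%, 21.1 to 24.5%) against 17.0% elsewhere. In windows of 1 Mb with at least 300 GNP gaps the median was 16.9% (quartiles 15.6 and 18.5%). The lowest, 13.0%, was on X from 18000001 to 19000000, and the highest, 28.2%, on 2R from 1 to 1000000.

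Stretches without called nucleosomes went with part of this. GNP gaps within 5 kb of a stretch of over 500 bp were shared in 19.2% (18.45 to 20.02%), and those farther away in 16.9% (16.6 to 17.2%). The share was 21.3% under 200 bp from such a stretch, 23.2% at 200 to 500 bp, 18.6% at 1 to 2 kb and 17.2% at 5 to 10 kb. Under 200 bp, 32.7% of GNP gaps were neither shared nor filled, against 14.3% over 5 kb away. The rule bears on this, since a GNP gap inside a glia step of over 500 bp cannot be shared. In the proximal 1 Mb, gaps over 5 kb from a stretch were shared in 17.2% against 16.9% elsewhere, and gaps within 5 kb in 26.3% against 17.8%. On 2L the proximal gaps over 5 kb away were shared in 45 of 193 cases (23.3%, 17.9 to 29.8%) against 16.7% on the rest of the arm. The other arms differed in direction, with 25% against 17.8% on 3L, 23.5% against 16.7% on 2R, 13.6% against 16.8% on 3R and 13.1% against 16.6% on X, and on each of these arms the intervals overlapped. Of the members, 1869 (17.6%) lay within 5 kb of a stretch, against 15.1% of filled gaps and 15.8% of all GNP gaps. Members within 1 kb of one were 200 bp or longer in both maps in 28.4%, and members over 5 kb away in 11.1%. This difference in length was not compared with other classes of gaps. Only reads that mapped to 1 place were used, and repeats leave stretches where no such read can fall. Its part in the shared gaps was not tested.

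**Figure D5:**
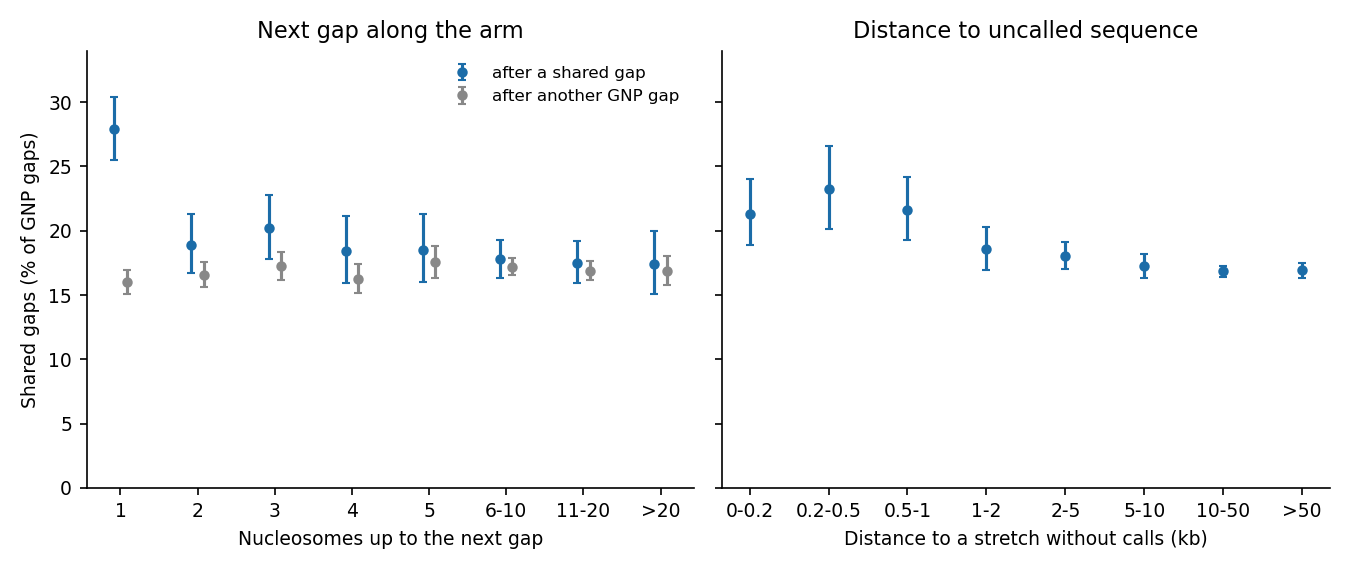
Percent of GNP gaps that were shared, with 95% Wilson intervals, on the left by the number of nucleosomes since the gap before, after a shared gap (blue) or another GNP gap (grey), and on the right by distance in kb to the nearest stretch of over 500 bp between neighbouring starts in either map. The share was highest with 1 nucleosome after a shared gap (27.9%) and, on the right, at 200 to 500 bp from a stretch (23.2%).

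Shared gaps were spread along the arms at a median distance of 7595.5 bp from centre to centre (7380 to 7851 bp, quartiles 3059 and 15686 bp, 10598 distances). The longest distance without one was 131339 bp, on 2L from 19608208 to 19739353, and 47 GNP gaps lay in it. Distances of at most 1 kb made up 8.73%, and those above 20 kb 17.2%. At most 1 kb was found in 27.2% of distances between filled gaps and in 38.0% between all GNP gaps, which are more numerous. Between the less numerous gaps that were neither it was 5.98%. The SD of the distances was 1.05 times their mean, and for filled gaps and all GNP gaps it was 1.07 and 1.08. Counts per window of 10 kb had a mean of 0.881 and a variance of 1.05 times the mean, against 0.989 for filled gaps and 0.971 for all GNP gaps. Filled gaps and all GNP gaps had higher means of 3.48 and 5.10. Gaps that were neither had a mean of 0.742, closer to that of shared gaps, and a variance of 0.980 times it. No shared gap lay in 42.1% of windows, and 1.59% held at least 4. Windows without a gap made up 47.3% for gaps that were neither, 4.43% for filled gaps and 1.82% for all GNP gaps.

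A gap was more often shared where the gap before it was. The next GNP gap was shared after 2055 of 10603 shared gaps (19.4%, 18.6 to 20.1%) and after 16.8% of gaps that were not shared (16.5 to 17.2%), and it was the higher of both on 6 of 6 arms. The difference was widest where a single nucleosome lay between, with 27.9% (25.5 to 30.4%) against 16.0% (15.1 to 16.9%). Here arm 4 was the exception, where 20 shared gaps gave a share of 20% against 21.2%. Such a pair shares the nucleosome between it, so the same position entered the rule for both gaps. That nucleosome had a glia dyad within 10 bp in 66.4% of 363 pairs of shared gaps, in 48.2% of pairs with 1 shared gap and in 22.1% of pairs with none. With 2 or more nucleosomes between, the share was 18.2% (17.4 to 19.0%) against 17.0% (16.6 to 17.3%), and with more than 20 between it was 17.4% against 16.8%, with intervals that overlapped.

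Most shared gaps stood alone. With centres linked up to 1 kb, 1754 members (16.5%, 15.8 to 17.3%) fell into 829 clusters, of which 743 had 2 members, 76 had 3 and 10 had 4, and 8850 members had no other within that distance. The share in clusters depends on how densely members lie, and it was not compared with other classes. The widest clusters of 4 showed how the gaps kept or changed their lengths. On 2L at chr2L:3656966-3659429, all 4 GNP gaps in the span were shared, with GNP lengths of 231, 187, 161 and 161 bp and glia lengths of 233, 152, 158 and 152 bp. On 3L at chr3L:24087259-24089688, which lay within 1 kb of a stretch of over 500 bp, the GNP lengths were 254, 307, 158 and 170 bp and the glia lengths 250, 337, 159 and 152 bp. On 3R at chr3R:13909257-13911533, 4 of 5 GNP gaps were shared, with GNP lengths of 159, 152, 190 and 236 bp and glia lengths of 157, 160, 170 and 263 bp. The first gap on 2L and the third on 3L differed by 2 bp and 1 bp between both maps, while others in the same clusters differed by up to 35 bp.

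The fullest window of 10 kb, chrX:21640001-21650000, held 7 shared gaps among 11 GNP gaps and 7 glia gaps. It touched a stretch of over 500 bp, and had 39 nucleosomes in GNP and 31 in glia. The next were chr2L:12460001-12470000 and chr3R:21860001-21870000 with 6 shared gaps each among 10 GNP gaps, both more than 18 kb from such a stretch. Another window with 6 lay on arm 4 and another on X.

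The rule limits a gap to 354 bp, so longer stretches without calls are not among the members. Within this limit, the longest stretch free in both maps was 347 bp at chr2L:10697393-10697740, where the glia gap was 353 bp and reached 3 bp farther on each side. The next was 340 bp on 2R within a GNP gap at chr2R:1235369-1235711, whose length was 342 bp in both maps and whose edges each lay 2 bp higher in glia. It was 468 bp from a stretch of over 500 bp. On 3L a GNP gap of 337 bp at chr3L:13395132-13395469 lay wholly within a glia gap of 353 bp. On 3R the gap at chr3R:17115277-17115622 measured 345 bp in GNP, its partner 341 bp, and 337 bp were common to both. The last of the 5 longest, of 336 bp at chr3L:23688736-23689072, lay 753 bp from a stretch and had a glia gap of 341 bp.

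Of the 15 members with identical edges in both maps, the longest was 302 bp at chr3L:23513438-23513740, 428 bp from a stretch of over 500 bp. The others of the 5 longest were chr2L:16475143-16475362 with 219 bp, chr4:613418-613628 with 210 bp, chr3L:3499794-3499993 with 199 bp and chrX:9775091-9775288 with 197 bp. Identical edges did not mean identical surroundings. At the gap of 219 bp the GNP map had steps of 255 bp on the left and 285 bp on the right, and the glia map 366 and 194 bp. At the gap of 302 bp the left step was 282 bp in both maps, and the right one 462 bp in GNP and 364 bp in glia.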

How the data were processed

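Nucleosome positions of 1 GNP and 1 glia MNase-seq library were used. The authors mapped reads to dm3 with Bowtie 0.12.7, kept reads that mapped to 1 place and called nucleosomes with GeneTrack, whose settings are not given in the sources used here. The deposited lists hold an arm, a start and an end per nucleosome, with an end 146 bp after each start in every line, and no score or read count. Whether starts count from 0 or 1 is not stated, and coordinates are printed as listed. The ChIP-seq samples of the series were not used here.

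Gaps, classes, spacing, clusters and profiles of starts were computed with Python 3.11.15 and numpy 2.4.6, intervals with scipy 1.17.1 (Wilson for shares, order statistics for medians, Poisson counts for peak ratios), and figures with matplotlib 3.10.9. The code was tested on simulated data with planted classes. Clusters link centres up to 1 kb apart. Named regions were the 5 members with the longest stretch free in both maps, the 3 windows of 10 kb with the most members, the 3 largest clusters, and the 5 longest members with identical edges, with ties settled by arm and start. The members and all lists were chosen with earlier results of these data known. Alternatives are given in the closing section.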

Additional observations from a re-analysis of the deposited data

How the results depend on the processing

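Of 38 alternative values, 16 were close to the main value (counts of gaps within 1.5 times of it, other values within its interval), 21 moved further and 1 reversed. This tally concerns the values alone. The order of shared gaps against all gaps also changed in some settings, among them the window counts and the peak ratios of both maps given below. In the main setting the first peak ratio was 3.64 beside shared gaps and 3.67 beside all gaps in GNP. In glia it was 3.04 and 2.88. The number of shared gaps lay between 7371 and 11235 in every alternative but that of gaps of 200 bp or more in both maps, which left 1339. The median distance was 9499 bp with 150 bp in common, 54450 bp for gaps of 200 bp or more, 7033.5 bp with starts up to 1000 bp apart, 10657.5 bp with no glia nucleosome reaching in by over 20 bp, and 7129 bp with glia gaps as the base. The share followed by a shared gap was 20.2% within 2 kb (16.8% after other gaps). Counts per window of 50 kb had a variance of 1.23 times the mean (all GNP gaps 1.20). Clusters held 7.43% of members with links of 500 bp and 31.5% with 2 kb. The first peak ratio was 43.3 in GNP and 24.4 in glia on sides with 3 nucleosomes before the next gap, which removes long steps by construction (all gaps 30.9 and 27.2), and 4.72 and 4.18 for gaps of 200 bp or more in both maps (all gaps of that length 4.39 and 3.09). The second nucleosome agreed in 45.1% within 20 bp (all nucleosomes 40.3%), and in 35.0% within 10 bp for gaps of 200 bp or more (all nucleosomes 28.7%).

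Other alternatives were chosen after seeing the data. Without gaps within 5 kb of a stretch of over 500 bp, the median distance was 8389 bp. The next gap was then shared in 18.4% (16.6% after other gaps). The variance of window counts was 1.14 times the mean, now below that of all GNP gaps (1.62). The reason for this change of order was not tested, and both classes differ in their mean count per window. Clusters held 15.8% of members. Arm 4 turned from the higher to the lower side, at 0.948 times the share of the other arms. Without pairs that 1 nucleosome parts, the next gap was shared in 18.2% against 17.0%. Base composition and gene starts, planned as alternatives, were not run. No paired analysis was possible because each cell type had 1 library and no result came from a test. With 1 library each, neither the effect of depth nor that of a repeat library on which gaps are shared was measured.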
